A study of Rattus norvegicus with 6 samples.

Results

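The hepatic glutathione S-transferases, UDP-glucuronosyltransferases and sulfotransferases were compared between BBDR rats with and without hyperglycemia. Members were all probe sets listed for exactly 1 gene whose symbol begins with Gsta, Gstk, Gstm, Gsto, Gstp, Gstt, Mgst, Ugt or Sult followed by a number. This gave 45 of the 14217 genes that had a probe set of their own, measured by 49 of the 31042 probe sets tested. Of the 49, 23 belonged to glutathione S-transferases (22 genes), 11 to UDP-glucuronosyltransferases (9 genes) and 15 to sulfotransferases (14 genes). The rule itself used names only and no measured value, but it was chosen with earlier results of these data known. Gstt2, Ugt2b, Ugt8 and Sult2b1 each had 2 probe sets, which are repeated readings of 1 gene. Another 4 probe sets were left out because they were listed for several genes.

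These enzymes carry out the second phase of drug and hormone metabolism, in which a polar group is joined to a molecule so that it can leave the cell in bile or blood. Glutathione S-transferases attach the tripeptide glutathione to electrophiles, UDP-glucuronosyltransferases of the endoplasmic reticulum attach glucuronic acid, and cytosolic sulfotransferases attach sulfate. The liver is a main site of all these reactions. The genes are known targets of the xenobiotic receptors Ahr, PXR and CAR and of the oxidative stress factor NRF2, and several sulfotransferases differ between male and female rats.

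Liver RNA had been hybridised to 6 Affymetrix rat arrays, 2 from each of 3 groups. BBDR.lyp/lyp rats carry 2 copies of the lyp allele, in which a Gimap5 frameshift leads to lymphopenia and spontaneous diabetes. They were sampled at 50 days before hyperglycemia (pre-hyperglycemia) and at 55 days shortly after its onset (post-hyperglycemia). BBDR.+/+ rats, which share the BBDR background, carry the normal gene and do not become diabetic spontaneously, were sampled at 55 days. No group received an agent, and each age had a tolerance of 5 days. The labels give no sex and do not say whether both replicates came from different animals, and p-values thus measure only the spread between these samples. Pre-hyperglycemia differs in age from both other groups, and the groups of different genotype differ in the lyp region, so age cannot be told apart from glucose against post-hyperglycemia or from genotype against BBDR.+/+, nor genotype from hyperglycemia in post-hyperglycemia versus BBDR.+/+. The labels describe a fast before collection, whereas the methods describe free access to food, and the average onset is placed later there than the age on the post-hyperglycemia labels. Values are log2 signals per probe set. A probe set's signal also depends on its probes, so levels were compared between groups and never between genes. In whole liver, fewer cells of a type and less RNA per cell cannot be told apart.

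The arrays were alike over all probe sets, with correlations between 0.9904 and 0.9967 and medians between 5.903 and 5.938. They differed in the control probe sets for beta-actin and GAPDH. The 3' signal exceeded the 5' signal by a mean of 1.74 and 1.68 on the log2 scale in the post-hyperglycemia arrays, by 1.09 and 0.93 in the pre-hyperglycemia arrays and by 1.04 and 0.78 in the BBDR.+/+ arrays. The post-hyperglycemia arrays therefore stood apart from the other 4 in this measure of RNA integrity and labelling, and both comparisons with them carry that difference. None of 9 hepatocyte markers lay in the lowest 25% of signals on all arrays. The markers had summed linear signals of 112000 to 114000 before hyperglycemia, 112000 on both arrays after it and 113000 to 114000 in BBDR.+/+.

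Most members gave strong signals. On all 6 arrays 30 of the 49 lay in the highest 25% of the array's probe sets, with limits of 7.64 to 7.72, among them 17 of the 23 glutathione S-transferase, 7 of the 11 UDP-glucuronosyltransferase and 6 of the 15 sulfotransferase probe sets. The members in the lowest 25% on every array, with limits of 4.49 to 4.54, were 6 in number, namely Gsta3l1, Ugt2b7, both probe sets of Ugt8, Sult1d1 and Sult2a1. Ugt8, which transfers galactose in the making of myelin lipids and is no detoxifying enzyme, stayed between 2.53 and 3.20. The differences given for these 6 are small differences of dim signals.

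The first comparison asked how the liver after hyperglycemia differed from that of BBDR.+/+ rats of the same age. Most conjugating enzymes differed little. Sult1c3, a cytosolic sulfotransferase of the 1C subfamily, was higher after hyperglycemia by 0.83, or 1.78-fold. Ugt2a1, a glucuronosyltransferase best known from the olfactory epithelium, was lower by 0.51, or 1.42-fold. With limma and adjustment over all probe sets these were the 2 members called, while 5.15% of all probe sets were called. The other 47 did not pass. At an unadjusted p under 0.05 there were 5 members against 19.7% of all probe sets, 2 of them higher and 3 lower. The rank product test of the methods called 5 members (Gstm2, Sult1c2a, Sult1c3, Sult1e1 and Ugt2a1), against 12.3% of all probe sets. The groups did not overlap for 25 members (51.0%), against 48.8% of all probe sets. The median member difference was -0.01, beside 0.01 over all probe sets, and the median size of the difference regardless of sign was 0.09 for members and 0.12 for all probe sets. For 48 members (98.0%) the 95% interval lay within a 2-fold difference in either direction, as it did for 97.9% of all probe sets. These intervals bound the differences but do not show that the levels were equal.

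**Figure D1:**
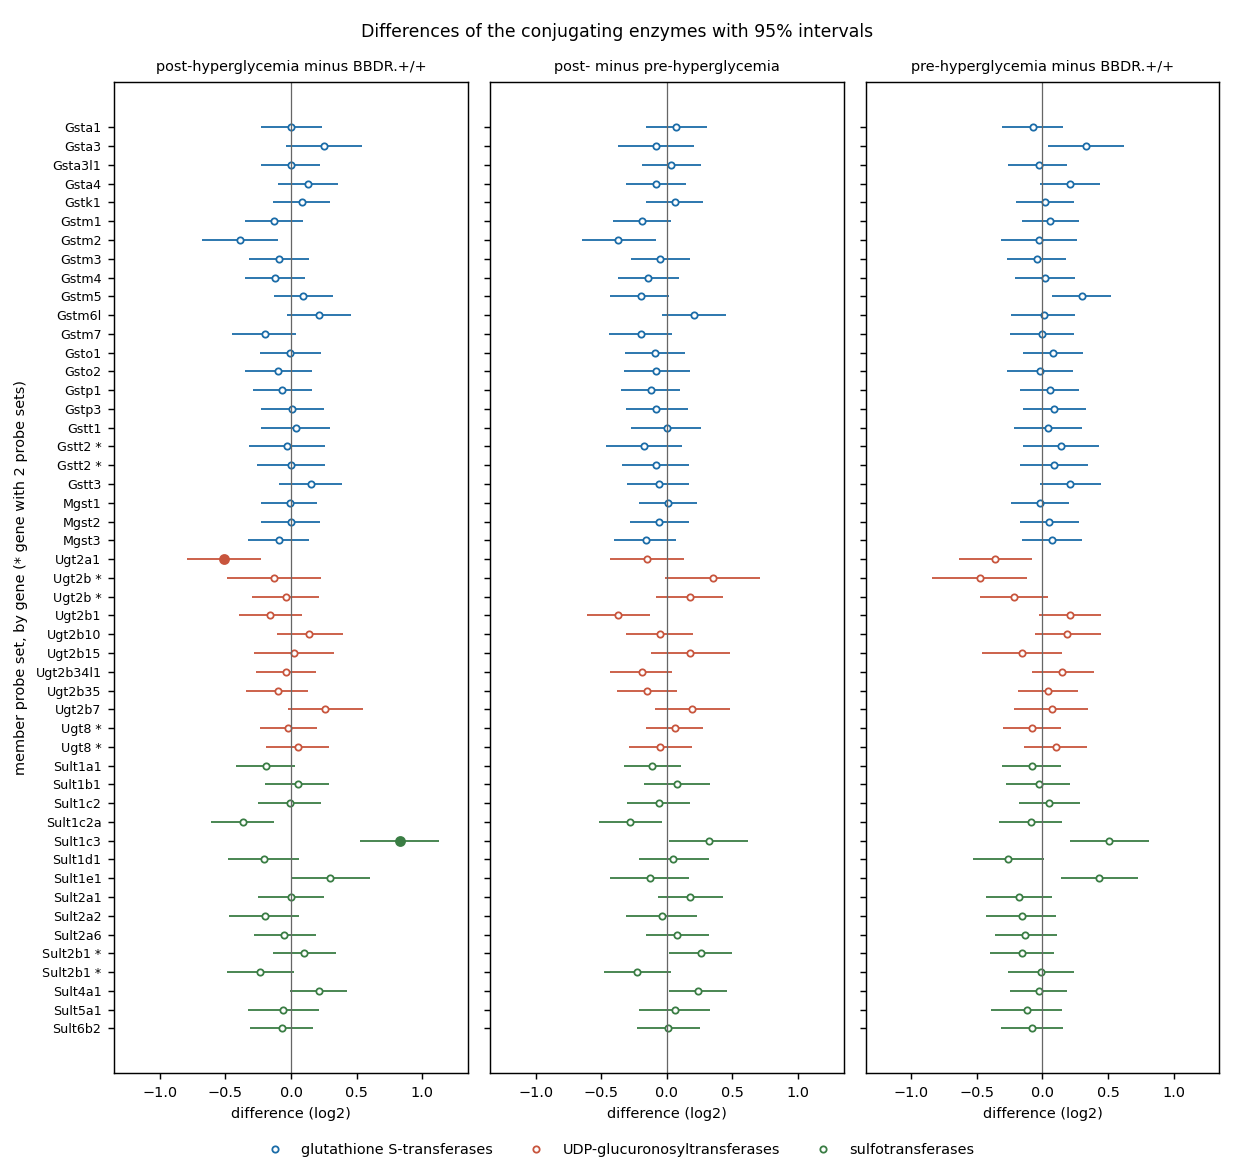
Differences in log2 signal (x axis) of the 49 member probe sets (y axis, by gene) in the 3 comparisons, with 95% intervals from limma. Filled points passed an adjusted p of 0.05, and these are Sult1c3 at 0.83 and Ugt2a1 at -0.51 in post-hyperglycemia minus BBDR.+/+, while every point in the other 2 panels is open.

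Sult1c3 gave signals of 9.94 and 9.56 in BBDR.+/+, 10.36 and 10.17 before hyperglycemia and 10.62 and 10.55 after it. Every lyp/lyp array was above both BBDR.+/+ arrays, and the post-hyperglycemia arrays were above the pre-hyperglycemia arrays. The difference from BBDR.+/+ after hyperglycemia was 0.83 ± 0.14 (SE, 95% interval 0.53 to 1.13, adjusted p = 0.00621 with limma). Before hyperglycemia it was 0.51 (0.21 to 0.81), which did not pass (adjusted p = 0.147 with limma), and post- minus pre-hyperglycemia was 0.32 (0.02 to 0.62, adjusted p = 0.300). Without BBDR.+/+ replicate 2, the lower of the control arrays, the first difference was 0.64 and no longer passed (adjusted p = 0.0832 with limma). With the 3' to 5' difference of the controls as a covariate it was -0.27 (adjusted p = 0.913 with limma). The fit with this covariate called 0 of the 31042 probe sets in either comparison with post-hyperglycemia (2171 and 2186 at an unadjusted p under 0.05 against BBDR.+/+ and pre-hyperglycemia). That covariate sets the post-hyperglycemia arrays apart from the other 4, and the part of RNA integrity or labelling cannot be told apart from hyperglycemia.

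Ugt2a1 gave 6.23 and 6.53 in BBDR.+/+, 5.92 and 6.12 before hyperglycemia and 5.88 and 5.86 after it. Both lyp/lyp groups lay below BBDR.+/+ without overlap, and the post-hyperglycemia arrays lay just below the pre-hyperglycemia ones. The post-hyperglycemia difference from BBDR.+/+ was -0.51 ± 0.13 (SE, 95% interval -0.79 to -0.23, adjusted p = 0.0452 with limma). The pre-hyperglycemia difference was -0.36 (-0.64 to -0.08, adjusted p = 0.287), and post- minus pre-hyperglycemia was -0.15 (-0.43 to 0.13, adjusted p = 0.656). The call stood near the threshold. It was lost without BBDR.+/+ replicate 2 (-0.35, adjusted p = 0.318), without post-hyperglycemia replicate 1 (-0.52, adjusted p = 0.12) and without post-hyperglycemia replicate 2 (-0.50, adjusted p = 0.151), and with the control covariate the value was 0.41 (adjusted p = 0.861).

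Sult1c3 lies in 1 cluster of the rat genome with its close relatives Sult1c2 and Sult1c2a, and the 3 can be set side by side. Sult1c2a was at 9.94 and 9.81 in BBDR.+/+, 9.86 and 9.70 before hyperglycemia and 9.54 and 9.46 after it. Its post-hyperglycemia arrays were below all others, but the differences of -0.37 from BBDR.+/+ (95% interval -0.61 to -0.13, adjusted p = 0.081) and -0.28 from pre-hyperglycemia (-0.52 to -0.04, adjusted p = 0.243) did not pass with limma. Sult1c2 differed from BBDR.+/+ by -0.01 (-0.25 to 0.23). Whether probes of these related genes also bind each other's transcripts was not tested. The 250 bases before the RefSeq start site (build GRCr8) are given for Sult1c3, as the member called higher, and for Sult1c2a, as the relative with the opposite sign. Capitals mark the letters TATAAA read on either strand, the core of the TATA box.
Sult1c3, chr9:7594257-7594506, minus strand: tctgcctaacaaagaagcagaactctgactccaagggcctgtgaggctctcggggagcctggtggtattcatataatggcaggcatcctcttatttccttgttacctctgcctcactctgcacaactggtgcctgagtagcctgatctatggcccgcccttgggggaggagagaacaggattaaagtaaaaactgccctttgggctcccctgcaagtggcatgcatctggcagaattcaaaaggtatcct
Sult1c2a, chr9:7103203-7103452, minus strand: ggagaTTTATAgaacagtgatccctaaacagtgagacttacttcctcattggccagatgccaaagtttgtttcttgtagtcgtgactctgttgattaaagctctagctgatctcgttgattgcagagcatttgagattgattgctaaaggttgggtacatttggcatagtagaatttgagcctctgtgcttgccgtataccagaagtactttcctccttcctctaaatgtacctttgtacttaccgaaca
The Sult1c3 stretch held none of the 3 motifs searched, and the Sult1c2a stretch held TATAAA once, on the opposite strand. That match lies at the end of the stretch farthest from the start site. Matches were counted at any position and on either strand, so they are runs of letters and not evidence of a TATA box. Of 41 promoter entries found for 38 of the 45 genes, 11 (26.8%) held TATAAA, against 12.9% of 33469 rat promoters of the same length. The TATAAA matches were in 5 of 12 sulfotransferase, 2 of 9 UDP-glucuronosyltransferase and 4 of 20 glutathione S-transferase entries.

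The other sulfotransferases did not pass in any comparison, and their spread was wide. Over the 15 probe sets the post-hyperglycemia minus BBDR.+/+ differences ran from -0.37 to 0.83 around a median of -0.05, with a median size of 0.19 beside 0.12 over all probe sets. Sult1e1, the estrogen sulfotransferase, was at 4.94 and 4.78 in BBDR.+/+, 5.24 and 5.35 before hyperglycemia and 5.36 and 4.97 after it. All lyp/lyp arrays were above the BBDR.+/+ arrays, by 0.43 before hyperglycemia (95% interval 0.14 to 0.73, adjusted p = 0.223 with limma) and by 0.30 after it (0.00 to 0.60, adjusted p = 0.249). Sult1a1, which sulfates small phenols and many drugs, was at 12.44 and 12.38 in BBDR.+/+, 12.36 and 12.30 before and 12.26 and 12.18 after hyperglycemia. The 3 groups did not overlap, yet the difference of -0.19 between the outer groups (-0.42 to 0.03, adjusted p = 0.336) did not pass. Sult2a1, a hydroxysteroid sulfotransferase, was dim at 2.72 to 3.04 on every array and differed by 0.00 after hyperglycemia from BBDR.+/+. Sult2a2 and Sult2a6 of the same subfamily gave strong signals, at 11.54 to 11.95 and 12.75 to 13.01. They differed by -0.20 and -0.05 in that comparison and did not pass. Sult2b1, which sulfates cholesterol, had 2 probe sets that pointed opposite ways in post- minus pre-hyperglycemia, one at 0.26 (0.02 to 0.50) and the other at -0.23 (-0.48 to 0.03). Sult1d1, dim throughout, had the lowest pre-hyperglycemia difference of the class, -0.26 (-0.53 to 0.01).

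**Figure D2:**
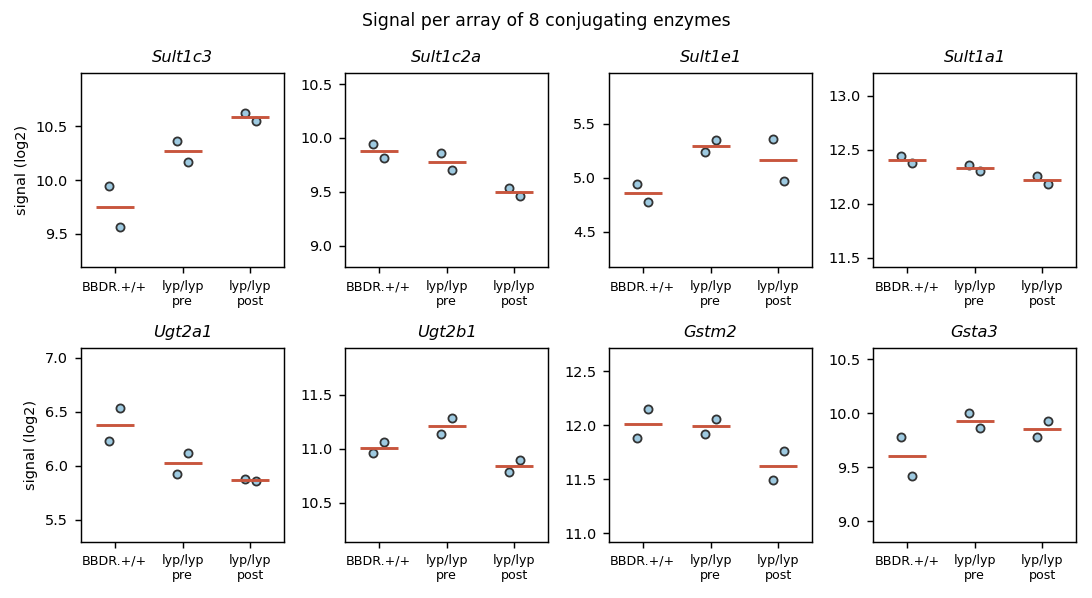
Log2 signal (y axis) of 8 member genes on each of the 6 arrays by group, with group means as lines and panels of equal height but different offsets. Sult1c3 was at 9.94 and 9.56 in BBDR.+/+ and at 10.62 and 10.55 after hyperglycemia, while the Sult1a1 arrays all lie between 12.18 and 12.44.

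Among UDP-glucuronosyltransferases, which also clear bilirubin and steroid hormones, 1 of 11 probe sets was called, that of Ugt2a1 against BBDR.+/+. Ugt2b1 was at 10.96 and 11.06 in BBDR.+/+, 11.14 and 11.29 before hyperglycemia and 10.79 and 10.90 after it. The pre-hyperglycemia arrays were the highest and the post-hyperglycemia arrays the lowest. Post- minus pre-hyperglycemia was -0.37 (95% interval -0.61 to -0.13), the largest decrease of the class in that comparison, and did not pass (adjusted p = 0.121 with limma). The 2 probe sets of Ugt2b had the opposite signs in both comparisons with pre-hyperglycemia and, like Ugt2b1, differences below 0 between post-hyperglycemia and BBDR.+/+ (-0.13 and -0.04). One was at 10.68 and 10.38 in BBDR.+/+, 10.30 and 9.79 before and 10.34 and 10.45 after hyperglycemia, with -0.48 for pre-hyperglycemia minus BBDR.+/+ (-0.84 to -0.12, adjusted p = 0.266) and 0.35 for post- minus pre-hyperglycemia (-0.01 to 0.71, adjusted p = 0.352). The other gave -0.22 and 0.18 in the same comparisons, with the same signs and smaller sizes. Ugt2b10 and Ugt2b34l1 differed from BBDR.+/+ before hyperglycemia by 0.19 and 0.15. Ugt2b7 was dim and differed by 0.26 after it (-0.02 to 0.55). In the RefSeq order of genes Ugt2a1 lies between Sult1b1 and Sult1d1 on one side and Ugt2b on the other, members that were not called with limma.

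Glutathione S-transferases had median differences of 0.09, 0.08 and 0.06 regardless of sign, beside 0.12, 0.11 and 0.10 over all probe sets. With limma 0 of 23 probe sets passed in any comparison, with unadjusted p under 0.05 for 1, 1 and 2 of them in the comparison of post-hyperglycemia with BBDR.+/+, of post- with pre-hyperglycemia and of pre-hyperglycemia with BBDR.+/+ (19.7%, 14.9% and 11.4% of all probe sets). Rank product called Gstm2 in each of the first 2 comparisons, and Gsta3 and Gstm5 in the last, where it called 12.3%, 10.6% and 9.44% of all probe sets. Every difference against BBDR.+/+ after hyperglycemia lay between -0.39 and 0.25. Gstm2, of the mu class, was at 11.88 and 12.15 in BBDR.+/+, 11.92 and 12.06 before hyperglycemia and 11.49 and 11.76 after it. Both post-hyperglycemia arrays were below the other 4. The differences were -0.39 from BBDR.+/+ (95% interval -0.68 to -0.10, adjusted p = 0.12 with limma) and -0.37 from pre-hyperglycemia (-0.65 to -0.08, adjusted p = 0.205). Other mu class genes gave smaller values, Gstm1 differing from BBDR.+/+ by -0.13, Gstm3 by -0.09, Gstm5 by 0.09, Gstm6l by 0.21 and Gstm7 by -0.20. Gsta3, an alpha class enzyme, was at 9.78 and 9.42 in BBDR.+/+, 10.00 and 9.86 before and 9.78 and 9.93 after hyperglycemia. Its pre-hyperglycemia arrays were above the BBDR.+/+ arrays by 0.33 (0.04 to 0.62, adjusted p = 0.363), and the post-hyperglycemia arrays met the upper BBDR.+/+ array. Gstm5 showed 0.30 in the same comparison (0.07 to 0.52, adjusted p = 0.27). Mgst1, the membrane-bound microsomal enzyme, stayed between 13.86 and 13.93 on all 6 arrays, Gsta1 between 13.11 and 13.31, and Gstp1, the pi class enzyme known as a marker of preneoplastic rat liver, between 9.44 and 9.61. Whether such bright probe sets were saturated was not tested.

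The antioxidant response element bound by NRF2 has the core TGACNNNGC, first described in glutathione S-transferase promoters. Searched on both strands of the 250 bases before each start site, it was found in 4 of 41 member entries (9.76%), all of glutathione S-transferases, against 10.1% of all 33469 rat promoters. Short windows are shown to let the members be read against each other, with the core in capitals, 5' to 3' on the gene's strand (RefSeq, build GRCr8).
Gsta3, chr9:31154963-31154988, plus strand: actcaggcaTGACTTCGCattttttc
Gstm5, first match, chr2:198219647-198219673, plus strand: aaggccaagTGACCACGCggagggcgg
Gstm5, second match, chr2:198219707-198219733, plus strand: cagtcgcgtTGACCCCGCccacagcgt
Gstm7, chr2:198260320-198260342, minus strand: aggctagatTGACACAGCctgtc
Gstp1, chr1:210769749-210769775, minus strand: ccactgtgtTGACTCAGCatccggggc
After hyperglycemia these genes differed from BBDR.+/+ by 0.25 for Gsta3, 0.09 for Gstm5, -0.20 for Gstm7 and -0.07 for Gstp1, and none passed. The core GCGTG of the element bound by Ahr occurred in 11 of 41 member entries (26.8%), against 25.9% of all promoters. A match is a run of letters and not evidence of binding.

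The second comparison, post- versus pre-hyperglycemia, set rats of the same genotype against each other. None of the 49 members passed with limma, against 2.18% of all probe sets. At an unadjusted p under 0.05 there were 6 members, 3 higher and 3 lower, against 14.9% of all probe sets, and rank product called 4 members (Sult1c3, Gstm2, Ugt2b and Ugt2b1), against 10.6%. The groups did not overlap for 27 members (55.1%), against 44.5% of all probe sets. The median difference was -0.06, beside 0.01 over all probe sets, and all 49 differences lay within 0.5 on the log2 scale. Of the glutathione S-transferase probe sets 18 of 23 had differences below 0, with a median of -0.08, where 14874 of all 31042 probe sets did. The medians were -0.05 for UDP-glucuronosyltransferases and 0.05 for sulfotransferases. The third comparison, pre-hyperglycemia versus BBDR.+/+, set normoglycemic rats of the 2 genotypes side by side, at 50 and 55 days. None of the 49 passed with limma, against 0.718% of all probe sets. Unadjusted, 6 members had a p under 0.05, 4 higher and 2 lower, against 11.4%, and rank product called 6 members (Gsta3, Gstm5, Sult1c3, Sult1e1, Ugt2a1 and Ugt2b), against 9.44%. The groups did not overlap for 20 (40.8%), against 42.6% of all probe sets. Class medians were 0.05 for glutathione S-transferases, 0.04 for UDP-glucuronosyltransferases and -0.08 for sulfotransferases, where 12 of 15 differences were below 0 (15804 of 31042 over all probe sets). The comparisons share arrays in pairs, so their values are given side by side only. Class medians were described and not tested against each other.

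**Figure D3:**
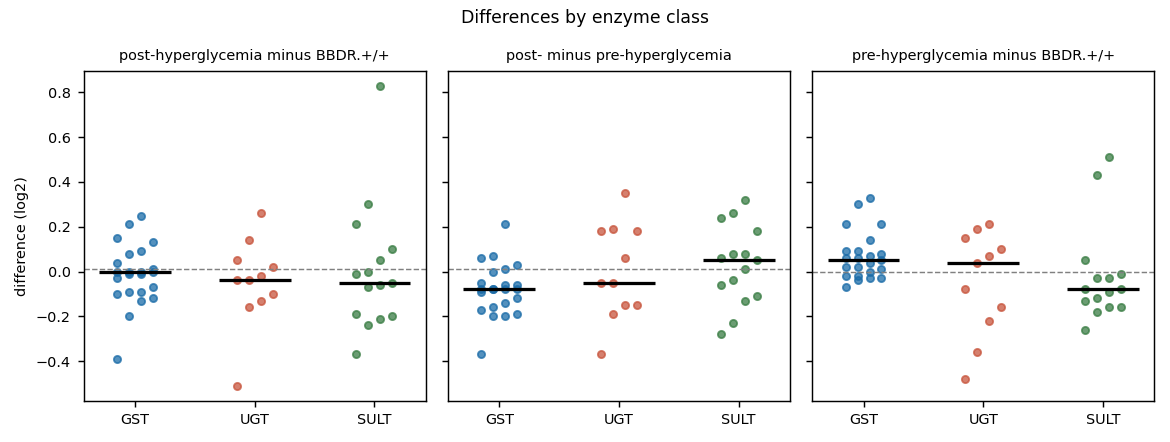
Differences in log2 signal (y axis) of member probe sets by enzyme class (GST, glutathione S-transferases, UGT, UDP-glucuronosyltransferases, SULT, sulfotransferases) in the 3 comparisons, each point 1 probe set, black lines class medians and dashed lines the median of all probe sets. Medians lie between -0.08 and 0.05 in every panel, and the point at 0.83 is Sult1c3.

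The genes that supply and use the cofactors of these enzymes were read from lists. Of 12 genes of glutathione supply and recycling, 1 was lower after hyperglycemia than in BBDR.+/+, namely Gsr, the glutathione reductase. It was at 7.59 and 7.91 in BBDR.+/+, 7.53 and 8.0 before and 6.88 and 7.21 after hyperglycemia, a difference of -0.70 (95% interval -1.09 to -0.32, adjusted p = 0.0422 with limma). Post- minus pre-hyperglycemia was -0.72 (adjusted p = 0.0622) and did not pass. Gclc and Gclm, the subunits of the first enzyme of glutathione synthesis, differed from BBDR.+/+ by -0.19 and -0.02 and did not pass. Gclc had 2 probe sets, of which only the brightest was read. The paper lists Gclc as higher after hyperglycemia in both of its comparisons, so this reading and the paper's differ. Of 7 genes of UDP-glucuronate supply and removal 2 were lower than in BBDR.+/+, and neither makes UDP-glucuronate. Slc35a3, a Golgi carrier of UDP-N-acetylglucosamine, went from 6.84 and 7.17 to 5.88 and 6.27 (-0.93, adjusted p = 0.00629 with limma). Enpp1, a nucleotide pyrophosphatase of the cell surface, was at 9.28 and 9.15 in BBDR.+/+ and 9.15 and 9.21 before hyperglycemia, and at 8.62 and 8.75 after it (-0.53, adjusted p = 0.0181, and -0.50 against pre-hyperglycemia, adjusted p = 0.0408). Ugdh, the enzyme that makes UDP-glucuronate, differed from BBDR.+/+ by -0.19 (-0.42 to 0.03, adjusted p = 0.345). None of 10 genes of sulfate donor supply and desulfation passed with limma in any comparison, where 0, 1 and 1 had an unadjusted p under 0.05, and none of 8 conjugate exporters did, where 1, 2 and 2 had. Papss2, which makes the sulfate donor in liver, stayed between 11.26 and 11.32. Without single arrays the adjusted p of Gsr ranged from 0.0166 to 0.311 (lost without either BBDR.+/+ replicate or post-hyperglycemia replicate 1), that of Slc35a3 from 0.00434 to 0.102 (lost without BBDR.+/+ replicate 2) and that of Enpp1 against BBDR.+/+ from 0.0228 to 0.119 (lost without either BBDR.+/+ replicate or post-hyperglycemia replicate 1). Enpp1 against pre-hyperglycemia lost its call without any 1 of the 6 arrays (0.0654 to 0.277). With the control covariate Gsr was at 0.76, Slc35a3 at 0.20 and Enpp1 at -0.67 against BBDR.+/+, and none passed. Gsr also did not pass with centring on ribosomal protein genes or array weights (adjusted p = 0.0513 and 0.0544). Enpp1 against pre-hyperglycemia did not pass with centring on ribosomal protein genes or arrays of the comparison only (0.0588 and 0.0694).

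Of 15 receptors and factors that control conjugating enzymes 1 was called. Ahr, the dioxin receptor, was at 5.86 and 6.22 in BBDR.+/+, 5.45 and 5.78 before and 5.30 and 5.10 after hyperglycemia, a difference of -0.84 between the outer groups (95% interval -1.17 to -0.51, adjusted p = 0.0101 with limma). The second probe set of Ahr differed by 0.00, so the gene's readings disagreed. The call was lost without BBDR.+/+ replicate 2 (-0.66, adjusted p = 0.137) and without post-hyperglycemia replicate 2 (-0.74, adjusted p = 0.0659), and with the control covariate the value was 0.29. Nr1i3, which encodes CAR, was at 6.16 and 5.97 in BBDR.+/+, 6.55 and 6.78 before and 6.05 and 6.25 after hyperglycemia. Its pre-hyperglycemia arrays were above all others, by 0.60 over BBDR.+/+ (adjusted p = 0.0666 with limma), which did not pass. Nfe2l2, which encodes NRF2, stayed between 10.12 and 10.32. Among 5 targets of Ahr, Cyp1a1 was higher by 0.45 after hyperglycemia than in BBDR.+/+ (adjusted p = 0.0477 with limma). Its difference before hyperglycemia was of like size but did not pass (0.44, adjusted p = 0.143 with limma), and post- minus pre-hyperglycemia was 0.01. Among 9 NRF2 targets other than the members, Ephx1, the microsomal epoxide hydrolase, was lower after hyperglycemia in both comparisons, by -0.45 from BBDR.+/+ (adjusted p = 0.0438) and -0.52 from pre-hyperglycemia (adjusted p = 0.0404). Nqo1 and Hmox1 were at 0.42 and 0.51 from BBDR.+/+ and did not pass (adjusted p = 0.0538 and 0.055). Of 9 PXR and CAR targets listed, only 4 had a probe set of their own. Of these 1 passed, Cyp3a2, higher by 0.71 before hyperglycemia than in BBDR.+/+ (adjusted p = 0.0487). Without single arrays the adjusted p reached 0.266 for Cyp1a1, 0.283 for Cyp3a2, and 0.254 and 0.335 for Ephx1, the values without BBDR.+/+ replicate 2 (Cyp1a1 and Ephx1 against BBDR.+/+), pre-hyperglycemia replicate 1 (Cyp3a2) and pre-hyperglycemia replicate 2 (Ephx1 against pre-hyperglycemia). With the control covariate Ephx1 was at -0.01 and -0.14, Cyp1a1 at 0.25 and Cyp3a2 at 0.71, and none passed. Ephx1 against BBDR.+/+ also did not pass with median centring, quantile normalization or array weights (adjusted p = 0.0515, 0.0614 and 0.0563). Against pre-hyperglycemia Ephx1 did not pass with quantile normalization, centring on ribosomal protein genes or arrays of the comparison only (0.0545, 0.0623 and 0.0753). Cyp1a1 did not pass with array weights or arrays of the comparison only (0.0554 and 0.0588). Cyp3a2 did not pass with quantile normalization or centring on ribosomal protein genes (0.0549 and 0.0798).

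**Figure D4:**
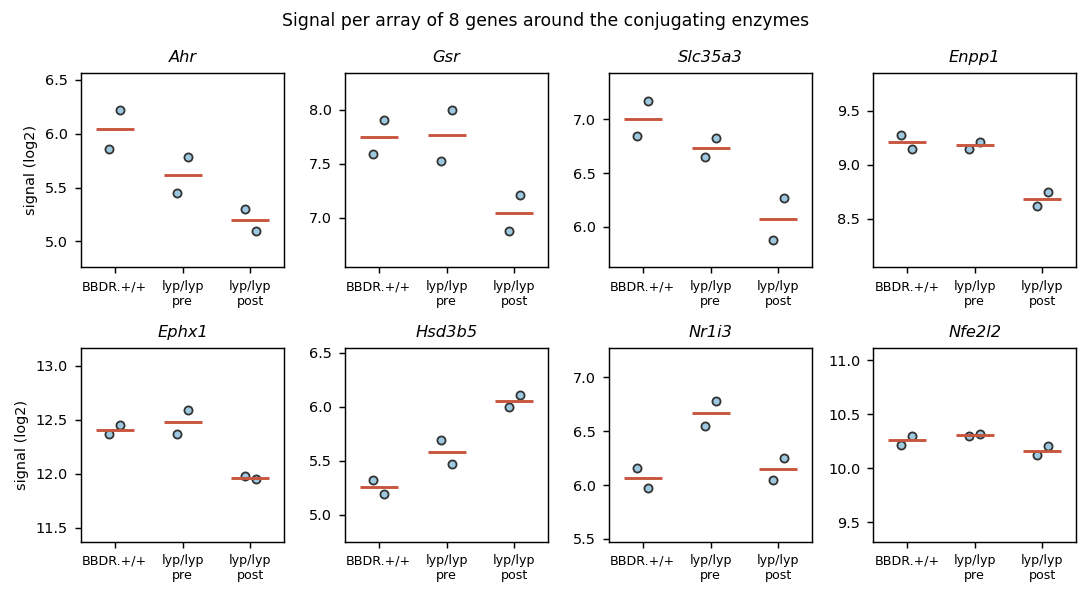
Log2 signal (y axis) of 8 genes that supply, remove or control the conjugating system, on each of the 6 arrays by group, with group means as lines. Enpp1 lies at 8.62 and 8.75 after hyperglycemia and at 9.15 to 9.28 in the other arrays, and Nfe2l2 lies between 10.12 and 10.32 throughout.

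Because sulfotransferases and the Ugt2b genes differ between the sexes in rat liver, genes with a sex bias were read beside them. None of 2 Y-linked genes, Eif2s3y and Uty, passed in any comparison with limma, and none had an unadjusted p under 0.05. Xist differed from BBDR.+/+ by 0.19 after hyperglycemia and by -0.03 before it, and the female-type cytochrome Cyp2c12 by 0.03 and -0.06, and neither passed. Xist was at 11.05 to 11.38 and Cyp2c12 at 13.65 to 13.82 over all 6 arrays. Eif2s3y was dim at 2.27 to 2.62, and the male-type Cyp2c11 was at 5.57 to 6.29. Of the other male-type genes, Cyp2a2 and Obp3 were dim at 3.98 to 4.39 and 3.53 to 3.72. Mup5 was at 4.42 to 4.75, Cyp2c13 at 5.45 to 5.9, Cyp3a2 at 5.57 to 6.49 and Hsd3b5 at 5.19 to 6.11. In contrast, Uty was at 9.18 to 9.68 and the male-type Rup2 at 13.6 to 13.85, Hao2 at 9.23 to 9.76 and Dhrs7 at 8.78 to 9.16. The female-type A1bg was at 12.38 to 13.13, Akr1b7 at 12.27 to 12.68, Prlr at 10.68 to 11.09 and Cyp17a1 at 6.29 to 7.1. These levels also depend on the probes, and the sex of the animals was not tested. Of 10 male-type genes, Hsd3b5, a male-type ketosteroid reductase, was higher (0.80, adjusted p = 0.00346 with limma) and Hao2 lower (-0.44, adjusted p = 0.046) after hyperglycemia than in BBDR.+/+, and Cyp3a2 was higher before it, as given above. Of 6 female-type genes, A1bg was lower before hyperglycemia (-0.59, adjusted p = 0.0495). Hsd3b5 lost its call without BBDR.+/+ replicate 2 (0.74, adjusted p = 0.062), Hao2 without any 1 of the BBDR.+/+ and post-hyperglycemia arrays (up to 0.222) and A1bg without any 1 of the 6 arrays (up to 0.407). With the control covariate Hsd3b5 was at 0.27, Hao2 at -0.16 and A1bg at -0.51, and none passed.

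Markers of other cells also differed between these groups, and their part in the member values was not tested. Of 8 Kupffer cell markers, 4 (Cd163, Cd5l, Clec4f and C1qa) were higher after hyperglycemia than in BBDR.+/+, by 0.40 to 0.73, and the summed linear signal of the 8 was 12800 to 13500 after hyperglycemia, 12200 to 12500 before it and 10000 to 10300 in BBDR.+/+. Of 7 neutrophil and monocyte markers, 2 (S100a8 and S100a9) were higher than in BBDR.+/+ both after (1.29 and 1.46) and before hyperglycemia (1.21 and 1.66), with sums of 290 to 297, 290 to 343 and 193 to 201 in the same order of groups, and with Cxcr2, Ccr2 and Lcn2 in the lowest 25% on every array. Against BBDR.+/+ after hyperglycemia, Lum of 9 stellate cell markers (0.53) and Pecam1 of 7 endothelial markers (0.49) were higher, and Cd8b of 13 lymphocyte markers (-0.45) was lower. The brightest probe sets of Col1a1 and Col1a2 were lower than before hyperglycemia (-0.51 and -0.62), whereas the second probe set of Col1a1 was at -0.13 there (adjusted p = 0.641) and higher than in BBDR.+/+ after hyperglycemia (0.41, adjusted p = 0.0476). The second probe set of Cd5l was at 0.07 against BBDR.+/+ (adjusted p = 0.92). Col1a1 and the erythroid Alas2 were higher before hyperglycemia than in BBDR.+/+ (0.60 and 0.56), and Cpa1 of 11 pancreatic acinar markers was higher after hyperglycemia than before it (1.09). None of 7 bile duct, 5 intestinal and 6 kidney tubule markers passed with limma in any comparison, although 1 bile duct and 1 intestinal marker had an unadjusted p under 0.05 in each comparison with BBDR.+/+. Against BBDR.+/+ after hyperglycemia, Tat of 9 hepatocyte markers was lower (-0.88). So were Axin2 (-0.45) and Oat (-0.50) of 8 pericentral genes, and Sds (-0.65) and Otc (-0.47) of 10 periportal genes. The other genes of these lists did not pass in that comparison, and the list medians were -0.06, -0.06 and -0.12. Before hyperglycemia Sds was also lower than in BBDR.+/+ (-0.68). Of the 22 list genes called against BBDR.+/+ after hyperglycemia, 20 lost the call without at least 1 array, and S100a8 and S100a9 kept it without each. Of the 5 called against pre-hyperglycemia, Cpa1 kept it, and of the 7 called before hyperglycemia, S100a9 kept it. With the control covariate 0 of the 22, 0 of the 5 and 3 of the 7 (S100a8, S100a9 and Sds) passed. Against BBDR.+/+ after hyperglycemia S100a8 was then at 0.80, S100a9 at 0.70, Cd163 at 0.15, Pecam1 at 0.12, Lum at 0.19 and Otc at -0.04, and Tat changed sign (0.32).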

How the data were processed

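Liver RNA was measured on 6 Affymetrix rat arrays, 2 per group, grouped by their labels. The authors deposited normalized log2 values, 1 per probe set and array, and the labels name Affymetrix Expression Console. The methods add Partek Genomic Suite, and which normalization algorithm was applied is not given in the sources used here. Labels and methods name different amplification kits. Of 31099 probe sets, 57 controls were set aside and 31042 were tested without a filter on signal. Symbols came from the annotation of the array, in which 20826 probe sets had 1 symbol, 436 several and 9780 none. The Entrez identifiers of 48 of 49 member probe sets were found in a RefSeq table, all with the same symbol, and Sult1e1 kept the file's name.

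limma (version 3.58.1, R 4.3.3) was fitted to all 6 arrays with 1 mean per group (3 residual and 7.70 prior degrees of freedom), and calls had a Benjamini-Hochberg adjusted p under 0.05 over all probe sets. Adjusted p-values in the text are limma's unless another test is named. The number of arrays limits the precision. Lists used the brightest probe set of each gene, and the sums add linear signals. Genes were named if called, if among the 2 largest differences each way in a class, or if called in a list. Others were named as well known for the class, and a few other members for their position, subfamily or low signal. Members, lists and this rule were chosen with earlier results of these data known. Alternatives were 3 other scalings, 2 filters on mean signal, the methods' t test and rank product (100 permutations, 20% false positives), arrays of 1 comparison, an intensity trend, array weights, a replicate block, 1 probe set per gene, a covariate for the 3' to 5' control difference, an adjusted p under 0.10, and leaving out each array. The tests were checked on simulated data. Python 3.11.15 was used for the other steps.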

Additional observations from a re-analysis of the deposited data

How the results depend on the processing

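Against the 2 members called in post-hyperglycemia versus BBDR.+/+, median centring, quantile normalization, centring on ribosomal protein genes and array weights each left 1 (Sult1c3), with 4.41% to 5.26% of all probe sets called. An intensity trend and the replicate block each gave 4 (Sult1c3, Ugt2a1, Sult1c2a and Gstm2), with 7.64% and 7.32% of all probe sets called, rank product 5 (12.3%), and the 3' to 5' covariate and the methods' t test each 0, as over all probe sets (2 and 3 members at an unadjusted p under 0.05). Without BBDR.+/+ replicate 2, Sult1c3 was at 0.64 and Ugt2a1 at -0.35. Without post-hyperglycemia replicate 1 they were at 0.80 and -0.52, and without post-hyperglycemia replicate 2 at 0.87 and -0.50. In post- versus pre-hyperglycemia, where limma called 0, the top 30% of probe sets and the intensity trend each gave 1 (Ugt2b1; 9.09% and 3.95% of the probe sets tested) and rank product 4 (10.6%). In pre-hyperglycemia versus BBDR.+/+, the intensity trend gave 1 (Sult1c3; 1.6%) and rank product 6 (9.44%). Leaving out an array leaves 1 array in its group, and how far this alone lowers the number of calls was not tested. The 4 ratios that rank product uses share arrays. With the covariate, Sult1c3 and Ugt2a1 changed sign in post-hyperglycemia versus BBDR.+/+ (-0.27 and 0.41), and against pre-hyperglycemia the medians of UDP-glucuronosyltransferases and sulfotransferases were 0.20 and -0.09. With the top 30% of probe sets, the sulfotransferase median against BBDR.+/+ was -0.12. The cause was not tested. Of 186 alternative counts and medians, 166 kept to their main value, by less than 1.5-fold for counts or the replicate spread for medians. Samples with the same number share only that number. Their deviations from the group means correlated at 0.11 to 0.26, with 2 pairs for each comparison, so pairing was not used.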

Other observations

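Of the 4 probe sets listed for several genes, 2 were listed for the same 8 genes of the Ugt1a locus, whose transcripts share most of their exons and which include the enzymes that conjugate bilirubin and small phenols. Their single genes cannot be told apart here. One of them was at 12.12 and 12.33 in BBDR.+/+, 12.05 and 12.30 before hyperglycemia and 11.45 and 11.64 after it. Both post-hyperglycemia arrays lay below the other 4. The difference was -0.68 from BBDR.+/+ (95% interval -0.96 to -0.39, adjusted p = 0.0129 with limma) and -0.62 from pre-hyperglycemia (-0.91 to -0.34, adjusted p = 0.0332), and it was -0.05 between pre-hyperglycemia and BBDR.+/+. The other probe set for the same genes differed by -0.07, -0.13 and 0.06 in the same comparisons and did not pass, so the readings of the locus disagreed. The probe set listed for Gsta5 and Gsta2 together differed by 0.01, -0.10 and 0.11, and the one listed for Sult1c2 and a gene known by a number by -0.37, -0.17 and -0.20. Neither passed.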
